A study of Homo sapiens with 6 samples.

Results

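Genes whose transcripts looked shorter after CIRBP was silenced were examined in RNA-seq data from cultured human cardiac cells. For every gene and library the deposited table holds an estimated count and a TPM, the latter being the count divided by the transcript length that the counting tool assigned, scaled to the library. The count divided by the TPM value therefore gives back a length, the mean effective length of the gene's transcripts weighted by the estimated number of molecules of each. This ratio was divided by its median in the library and is called the implied length below. Of 58884 genes, 6806 had at least 500 counts and a TPM of at least 5 in all 6 libraries. The 100 genes described here were chosen by their implied length: every knockdown value lay under every control value, and the change in mean log2 was among the 100 most negative. OGFR is left out by the rule, but it ranked 344 among the lower genes and would not have been taken. Since the lengths chose the genes, their lengths are given as a description, without tests. Their counts were tested, but the calls are given as a description too, and nothing is read from them.

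The cells are immortalized human ventricular cardiomyocytes, named T0519 in the labels of the libraries and AC16 in the study's account of the experiment. Cells carried either a negative control siRNA (NC, 3 libraries) or an siRNA against CIRBP (SiCIRBP, 3 libraries), and the labels name no other treatment. The study's own test of expression used NC_2, NC_3, SiCIRBP_1 and SiCIRBP_3, without NC_1 and SiCIRBP_2. Nothing says whether the libraries came from separate cultures, so the spread between them may be technical.

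CIRBP is a cold-inducible RNA-binding protein that binds many mRNAs, often in their 3′ untranslated regions. With its relative RBM3 it is known as a repressor of proximal polyadenylation sites, the sites whose use ends a transcript early. A gene can yield shorter transcripts through an earlier polyadenylation site, a later promoter, a skipped exon or a short non-coding transcript, and a shift in any of these mixtures moves the implied length.

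CIRBP itself was at 134, 133 and 149 TPM in NC_1, NC_2 and NC_3, and at 62.1, 22.5 and 57.8 TPM in SiCIRBP_1, SiCIRBP_2 and SiCIRBP_3. SiCIRBP_2 had the least CIRBP mRNA. TPM overstates the fall, because the length assigned to CIRBP was longer in SiCIRBP. Over all 6 libraries the difference was -1.68 in log2 TPM and -1.15 in the log2 of normalized counts. By edgeR's quasi-likelihood test over the 4 libraries of the study, CIRBP counts fell (log2 change -0.81 ± 0.11, SE, Benjamini-Hochberg adjusted p = 0.0083). Total counts were between 25726259 and 29919566 per library. Of 14 cardiomyocyte markers, 10 were under 1 TPM in all 6 libraries, and 5 of these, MYH6, MYL2, RYR2, TTN and CASQ2, were listed at 0. GATA4 (22.6 to 63.0 TPM), ACTN2 (7.86 to 15.9 TPM) and NKX2-5 (3.39 to 9.69 TPM) were detected. TNNI3 was at 0.53, 0.77 and 0.11 TPM in NC and higher in SiCIRBP, at 1.58, 0.86 and 2.45 TPM. The cardiomyocyte list summed to 72.7 to 89.6 TPM in NC and 41.0 to 61.1 TPM in SiCIRBP, and 8 fibroblast and mesenchymal markers summed to 4102 to 4408 and 3966 to 5669 TPM. Most of the fibroblast sum was VIM, at 2724 to 3663 TPM, while POSTN and DCN reached at most 0.38 and 1.92 TPM. The 3 endothelial markers summed to at most 0.45 TPM, and the 3 leukocyte markers to 6.92 to 7.58 TPM in NC and 9.24 to 12.0 TPM in SiCIRBP, nearly all of it CD68. The part of these shifts in the results was not tested, and in bulk RNA fewer cells of a type and less RNA per cell cannot be told apart.

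The members' implied length in SiCIRBP was between 61.3% and 84.7% of that in NC, with a median of 80.0%, whereas the median over all 6806 genes was 99.1%. On the log2 scale the difference ran from -0.71 for FBXL18 to -0.24 for DMXL2, with a median of -0.32 against -0.01 over all genes. In 23 members the SiCIRBP length was at most 75% of the NC length. Every SiCIRBP value under every NC value, which the rule required, held for 1210 of the 6806 genes (17.8%), and the reverse for 501 (7.36%). Of the genes without overlap, 70.7% were thus lower. That split depended on the scaling: by the slope of count over TPM against annotated length, 529 genes were lower and 945 higher (35.9% lower), and without scaling 45 were lower and 1892 higher (2.32% lower). Without scaling the median over all genes was itself 0.11 higher in SiCIRBP on the log2 scale.

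**Figure D1:**
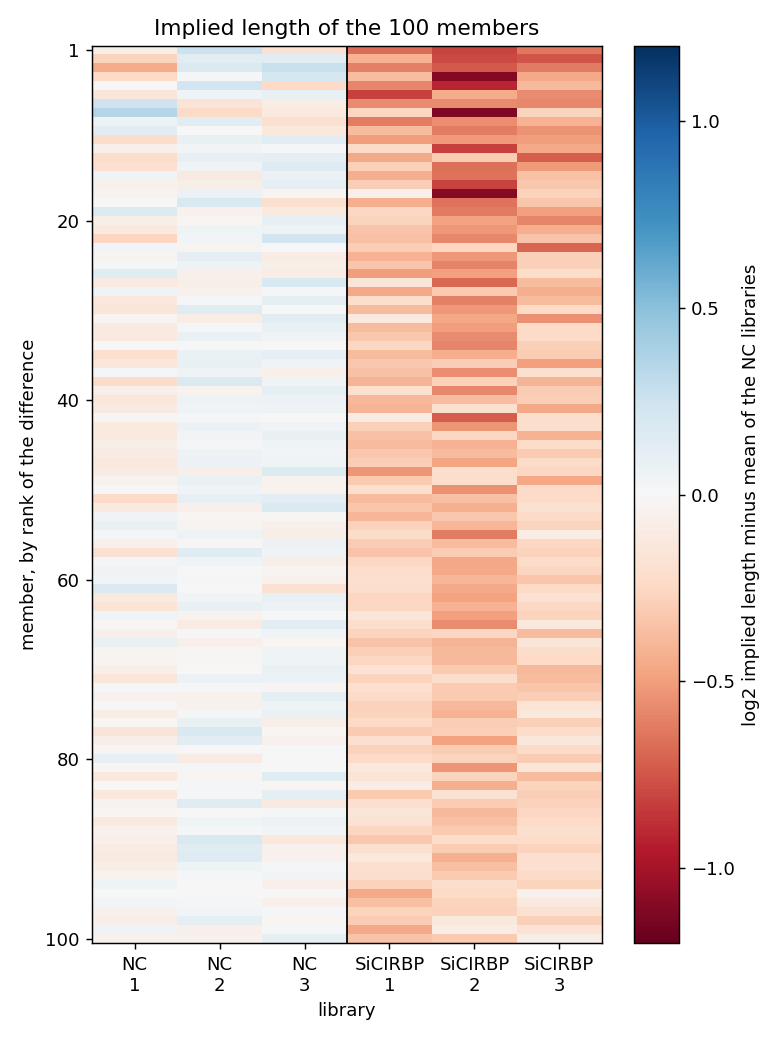
Implied length of each of the 100 members (rows, by rank of the difference) in each of the 6 libraries (columns), as log2 minus the mean of the gene's NC libraries; red is shorter and blue longer. The median over members was -0.29, -0.42 and -0.27 in SiCIRBP_1, SiCIRBP_2 and SiCIRBP_3, while the NC columns had medians from -0.05 to 0.03.

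Relative to a gene's own NC mean, the median member stood at -0.05, 0.02 and 0.03 on the log2 scale in NC_1, NC_2 and NC_3, and at -0.29, -0.42 and -0.27 in SiCIRBP_1, SiCIRBP_2 and SiCIRBP_3. SiCIRBP_2 was the lowest SiCIRBP library for 66 of the 100 members, SiCIRBP_1 for 19 and SiCIRBP_3 for 15, where over all 6806 genes these libraries were lowest for 1993, 1804 and 3009. NC_1 was the lowest NC library for 59 members and for 3217 of all genes. Without SiCIRBP_2 the median difference was -0.27, and without NC_1 it was -0.36. The members also varied more within a group than most genes did: the median SD of log2 implied length was 0.10 in NC and 0.12 in SiCIRBP over the members, and 0.04 in both groups over all genes. The gap between the lowest NC and the highest SiCIRBP value had a median of 0.13, was over 0.1 in 63 members and under 0.05 in 15. At the limit of the rule, TIPRL (rank 99) and DMXL2 (rank 100) lay at -0.2415 and -0.2399, and the next genes outside, BRPF1 and CPSF6, at -0.2394 and -0.2393.

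To put the ratio in bases, a line was fitted in each library through count over TPM against the length of genes with 1 annotated transcript. Between 114 and 121 of 300 such genes lay within 1% of the line, which crossed zero at 254 to 267 bases, the part of a transcript that an effective length leaves out. On this scale the members had a median effective length of 3344 bases in NC and 2596 in SiCIRBP, while all genes had 2179 and 2211. The line rescales the same ratios that chose the members, so it is no separate check of them. On its scale 94 of the 100 members were lower in every SiCIRBP library, beside 529 of all 6806 genes. The exceptions were SAP30L, MYCBP2, MOV10, HERC2, PRUNE2 and DMXL2, in which 1 or more values overlapped.

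The members were long genes. Their longest GENCODE 29 transcript had a median length of 7386 bases, against 3734 over all genes, and it was over 5000 bases in 75 of the 99 members with annotated transcripts (75.8%, against 29.5% of all genes). In NC the effective length was 48.8% of that of the longest transcript in the median member and 71.0% in the median gene. In SiCIRBP these shares were 39.7% and 72.2%. The 100 genes picked by the rule turned round, those with the most positive difference, had a median longest transcript of 5133 bases, with 51.0% over 5000 bases. A transcript with a retained intron was annotated for 71.7% of the members, 85.0% of that mirror set and 64.2% of all genes. Protein-coding transcripts with 3′ ends at least 100 bases apart were annotated for 86.9%, 90.0% and 78.6%.

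The expressed genes were divided into 5 bins of equal size by their longest annotated transcript. The share of genes with every SiCIRBP value under every NC value was 11.7%, 16.8%, 17.2%, 19.1% and 24.1% from the shortest bin to the longest. The reverse share was 3.16%, 5.81%, 8.84%, 9.79% and 9.27%. The members numbered 4, 4, 8, 18 and 65 in these bins. Genes with long transcripts thus held most of the members, and the shares without overlap in either direction were smallest in the bin of the shortest genes.

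FBXL18, an F-box protein that hands substrates to a ubiquitin ligase, had the most negative difference (chr7:5431335-5513798, minus strand). Its effective length was 5507, 6805 and 5078 bases in NC_1, NC_2 and NC_3, and 3674, 3297 and 3780 bases in SiCIRBP_1, SiCIRBP_2 and SiCIRBP_3. The groups were separated by 0.45 on the log2 scale, the widest gap among the members, and the mean was 5797 ± 899 bases (SD, n = 3) in NC and 3584 ± 254 in SiCIRBP. The GENCODE 29 transcripts of FBXL18 reach 3498 bases, an effective length under all 6 of its values, while the deposited table lists 8270 bases for the gene. The counts of FBXL18 differed little, at 1028, 1049 and 1153 in NC and 1005, 1255 and 1075 in SiCIRBP. Its TPM, which divides by the length, was 8.41, 7.69 and 9.95 in NC and 11.6, 16.3 and 12.6 in SiCIRBP, without overlap.

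Chromatin and transcription regulators were the most numerous functional group, with 16 members, assembled, as were the groups below, after the members were known. Their median difference was -0.36, from -0.65 to -0.25. PHF20, a histone reader of an acetyltransferase complex, had 2048, 3088 and 3332 bases in NC and 1850, 1670 and 1834 in SiCIRBP. NC_1 lay closer to the SiCIRBP values than to the other NC libraries. KDM5A, a histone demethylase (chr12:280129-389454, minus strand), had 6918, 7789 and 8081 bases in NC and 4361, 5623 and 5211 in SiCIRBP, and its groups were 0.30 apart. SAP30L, of the Sin3 histone deacetylase complex, had 3729, 2459 and 2676 bases in NC and 2472, 1352 and 2467 in SiCIRBP, where NC_2 and SiCIRBP_1 nearly coincided and SiCIRBP_2 stood apart. TAF10, a subunit of TFIID and SAGA, had 803, 722 and 666 bases in NC and 569, 479 and 511 in SiCIRBP. PCGF5, a polycomb group protein, stood at 71.4% of NC and MLLT10, a leukaemia fusion partner, at 73.6%. The other members of the group include the histone methyltransferases KMT2A (82.7%), KMT2B (82.9%) and SETD2 (81.4%) and the chromatin remodeller SMARCA2 (83.9%), named after their values were seen.

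The 10 ubiquitin ligases and adaptors had a median difference of -0.35. The list holds several giant ligases, with the longest transcript of HERC2, HERC1, UBR4 and MYCBP2 between 14736 and 15906 bases. KLHL9, a substrate adaptor of a cullin ligase, had 4021, 4293 and 4037 bases in NC and 4015, 1941 and 3468 in SiCIRBP. Only SiCIRBP_2 and SiCIRBP_3 were clearly lower, and SiCIRBP_1 was level with NC_1. Without SiCIRBP_2 the difference of KLHL9 was -0.17 in place of -0.48. KLHL9 has 1 annotated transcript, of 5710 bases, which leaves no mixture of GENCODE 29 transcripts that gives these lengths.

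Among 10 members of membrane traffic and lipid signalling the median difference was -0.39. SYNJ2, an inositol phosphatase of clathrin-mediated endocytosis, had 3828, 4510 and 5198 bases in NC and 3514, 2103 and 3322 in SiCIRBP. GOLGA4, a golgin of the trans-Golgi network, had 1439, 1662 and 1210 bases in NC and 966, 765 and 1108 in SiCIRBP. In both genes SiCIRBP_2 was the lowest library. RAB8B, a small GTPase of vesicle transport, had 3029, 2951 and 3377 bases in NC and 2581, 1790 and 2529 in SiCIRBP. FAM126B, a relative of the hyccin protein of the phosphatidylinositol kinase complex, had only 153, 135 and 154 bases in NC and 110, 95 and 118 in SiCIRBP. These lengths are under the effective length of its shortest GENCODE 29 transcript, of 486 bases.

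The cytoskeletal group of 10 members had a median difference of -0.31, and its longest transcripts had a median of 9395 bases. ARHGAP45 had 1601, 1957 and 2023 bases in NC and 1326, 1311 and 1337 in SiCIRBP, with the SiCIRBP values close together. FLNA, the actin cross-linker filamin A and the most abundant member with a mean of 673 TPM, had 3528, 4003 and 3986 bases in NC and 3165, 2784 and 3325 in SiCIRBP. NC_1 was the shortest NC library for FLNA.

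The extracellular matrix and cell surface group counted 8 members with a median difference of -0.32, and SiCIRBP_2 was the lowest library in all 8. FN1, fibronectin, is the single member found in any of the gene lists, where it is a fibroblast and mesenchymal marker (chr2:215360440-215436172, minus strand). It had 3983, 4463 and 4432 bases in NC and 3561, 3002 and 3785 in SiCIRBP. FBN1, which encodes the microfibril protein fibrillin, had 5421, 5507 and 5885 bases in NC and 4615, 4341 and 4819 in SiCIRBP. KCNMA1, a calcium-activated potassium channel, had 1965, 2132 and 2302 bases in NC and 1871, 1411 and 1672 in SiCIRBP, and 93 annotated transcripts, more than any other member named here. The 3 genes are among the 10 most abundant members.

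**Figure D2:**
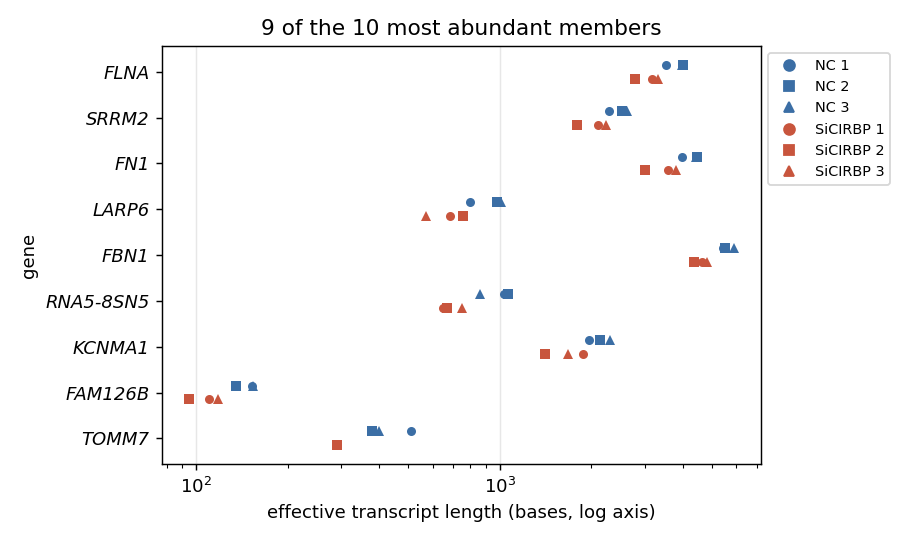
Effective transcript length (bases, log axis) of 9 of the 10 members with the highest mean TPM, one point per library; NC in blue and SiCIRBP in red, with the shape giving the replicate number. FLNA lay between 3528 and 4003 bases in NC and between 2784 and 3325 in SiCIRBP.

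RNA processing and translation accounted for 10 members, with a median difference of -0.32. LARP6, which binds collagen mRNAs, had 799, 981 and 1005 bases in NC and 684, 754 and 571 in SiCIRBP. Here SiCIRBP_3 was the lowest library and SiCIRBP_2 the highest of the knockdown. DROSHA, the nuclease that starts microRNA maturation, had 3096, 3463 and 2699 bases in NC and 2311, 1977 and 2486 in SiCIRBP. SRRM2, a splicing and nuclear speckle scaffold, had 2292, 2517 and 2627 bases in NC and 2105, 1788 and 2233 in SiCIRBP, a difference of -0.30.

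The 6 mitochondrial proteins had a median difference of -0.29, and their longest transcripts had a median of 3458 bases, the shortest of any group. TOMM7, a small subunit of the outer membrane translocase (chr7:22812628-22822852, minus strand), had 509, 379 and 400 bases in NC and 292, 291 and 292 in SiCIRBP. The 3 SiCIRBP values were all but equal (292 ± 0.76 bases, SD, n = 3), while NC_1 was above the other NC libraries. The counts of TOMM7 differed little, at 1495, 1385 and 1686 in NC and 1518, 1513 and 1411 in SiCIRBP. Its TPM was 132, 182 and 185 in NC and 221, 223 and 213 in SiCIRBP. The 4 DNA repair members (RAD50, PRKDC, OGG1 and IGHMBP2) had a median difference of -0.31, and the nuclear pore proteins TPR and NUP214 lay at -0.31 and -0.27.

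**Figure D3:**
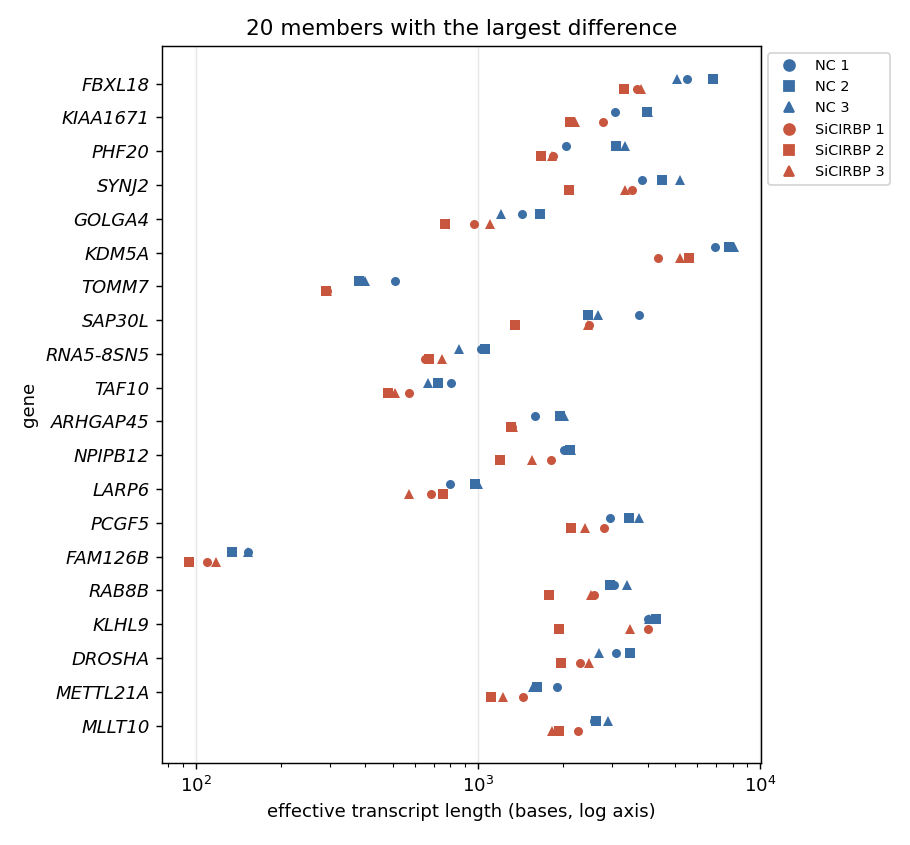
Effective transcript length (bases, log axis) of the 20 members with the most negative difference, one point per library; NC in blue and SiCIRBP in red, with the shape giving the replicate number. In TOMM7 the 3 SiCIRBP points overlie at 291 to 292 bases, and in SAP30L and KLHL9 a SiCIRBP point reaches the NC points.

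Of the remaining genes among the first 20, KIAA1671 had 3062, 3970 and 4017 bases in NC and 2777, 2125 and 2203 in SiCIRBP. METTL21A, a methyltransferase of heat shock proteins, had 1911, 1617 and 1566 bases in NC and 1448, 1110 and 1229 in SiCIRBP. Both were without overlap, by 0.15 and 0.13. NPIPB12, at 2025, 2127 and 2140 bases in NC and 1821, 1196 and 1561 in SiCIRBP, belongs to a family of near-identical copies between which reads can be split. The same holds for NBPF10 (75.5% of NC), and the pseudogene AHSA2P (81.3%) and AK6 (81.2%), whose locus overlaps another gene, are uncertain too. For AC124319.1 (81.7%) the name is uncertain. Its deposited description is ring finger protein 213, and it was left out of the functional groups. RNA5-8SN5, a ribosomal RNA gene with many copies, had 1028, 1065 and 857 bases in NC and 650, 672 and 749 in SiCIRBP, although 153 bases are listed for it. Its values are uncertain.

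Whether annotated transcripts could give the observed lengths was asked for each member. In 92 of the 100, all 6 values lay between the effective lengths of the shortest and the longest GENCODE 29 transcript. The others were FBXL18, RNA5-8SN5, NPIPB12, FAM126B, KLHL9, NBPF10, PABPC1L and IRS2. The range is wide, with a median shortest transcript of 442 bases and a median longest of 7386, so most lengths would fall inside. In members such as TOMM7 (shortest 241 bases), the shortest transcript is under the part that an effective length leaves out, so the lower limit could not fail. The share over all expressed genes was not computed, so nothing is read from the 92. For the 92, the difference of the means was divided by the difference between the longest and the shortest annotated length. This estimates the least share of molecules that would have to pass from the longest to the shortest transcript. It had a median of 9.32% and ran from 2.33% for SOD2 to 25.7% for TOMM7. Where the shortest transcript is under the part left out, as in TOMM7, the share is too low. GENCODE 29 is not the annotation behind the deposited values: the listed length equalled that of a GENCODE 29 transcript for 3591 of the 6806 genes.

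Members with few annotated transcripts, chosen after their values were seen, show how such a mixture looks. TIPRL, a regulator of TOR signalling, has 2 transcripts, which are both protein-coding and end at different sites. The last 30 bases of these transcripts, and of those of JCAD and SRRD, are shown because they are the candidate ends of long and short forms, with AATAAA, the usual polyadenylation signal, in capitals at its first match.
TIPRL-202: agAATAAAcaataaggaattactgatcaaa
TIPRL-201: taaAATAAAataaaagaagtagaaaacaca
JCAD-201: tgttccaAATAAAgattttgcatgaaagta
JCAD-202: acatgttccaAATAAAgattttgcatgaaa
JCAD-203: cacttctgcttccagaacctcggaggcggg
SRRD-201: aaatgtccAATAAAtggtgcccactatgaa
SRRD-202: aggacgataccccacatgaggacttggtat
SRRD-203: ctgcagaaaaattatccctacattgcaaag

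These sequences are from GENCODE 29 on GRCh38, read 5′ to 3′ on the transcribed strand. TIPRL-202, of 3032 bases, ends at chr1:168202085-168202114 (plus strand) and TIPRL-201, of 727 bases, at chr1:168192366-168192395. AATAAA or ATTAAA was searched on the transcribed strand, and stands in the last 30 bases of 13014 of the 35868 protein-coding transcripts of the expressed genes (36.3%), so a match is a description and not a site in use. Both TIPRL ends hold AATAAA. Its effective length was 2734, 2480 and 2637 bases in NC and 1935, 2476 and 2359 in SiCIRBP. If these 2 transcripts were the only ones, the long one would make up 98.4%, 87.3% and 94.2% of the TIPRL molecules in NC and 63.7%, 87.2% and 82.1% in SiCIRBP. NC_2 and SiCIRBP_2 were then level, and SiCIRBP_1 was the lowest.

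JCAD, a protein of endothelial cell junctions, has a coding transcript of 9265 bases, JCAD-201, which ends at chr10:30012800-30012829 (minus strand). JCAD-202 is a processed transcript of 684 bases that ends 3 bases before it, with the same signal. The short JCAD-203, of 590 bases, ends far upstream, at chr10:30047532-30047561, without either signal. The effective length of JCAD was 7665, 8842 and 8625 bases in NC and 6787, 6885 and 6056 in SiCIRBP. As a mixture of the longest and the shortest transcript alone, the long one would be 84.6%, 98.1% and 95.6% in NC and 74.4%, 75.6% and 66.0% in SiCIRBP, without overlap.

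SRRD has a coding transcript of 4020 bases, SRRD-201, ending at chr22:26494629-26494658 (plus strand), and 2 transcripts with a retained intron, of 668 and 607 bases, that end upstream of it without either signal. Its effective length was 2129, 2332 and 2033 bases in NC and 1640, 1524 and 1804 in SiCIRBP. As a mixture of the longest and the shortest alone, the coding transcript would be 52.2%, 58.2% and 49.4% of the SRRD molecules in NC and 37.9%, 34.5% and 42.7% in SiCIRBP. Which transcripts were present cannot be read from gene totals, so these shares hold only under the mixture stated.

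The length enters TPM but not the count, so count and TPM of the members were set side by side. Over all 6 libraries, the mean log2 of normalized counts (CPM) was higher in SiCIRBP for 23 members, but the mean log2 TPM for 43. CPM was higher for 23% of the members and 53.7% of all expressed genes, and TPM for 43% and 37.1%. The members thus lay further from all genes in CPM than in TPM. In 20 members the 2 scales pointed in opposite directions, TPM higher and CPM lower, against 0.588% of all genes. This follows from the choice of the members, since a shorter assigned length raises TPM at an equal count. GOLGA4 was 0.39 higher in log2 TPM and 0.09 lower in log2 CPM, and KDM5A 0.20 higher and 0.26 lower (0.35 higher in TPM over the study's 4 libraries). LARP6, at 237, 224 and 232 TPM in NC and 303, 318 and 281 in SiCIRBP, did not overlap in TPM. In CPM it did, with 147, 171 and 174 in NC and 167, 218 and 129 in SiCIRBP. FN1 was at 320, 346 and 372 TPM in NC and at 401, 252 and 410 TPM in SiCIRBP, and SiCIRBP_2 decided its values: over the study's 4 libraries its log2 TPM was 0.17 higher and its count change -0.02 ± 0.08 (SE), while over all 6 the TPM difference was 0.00 and CPM was 0.19 lower.

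**Figure D4:**
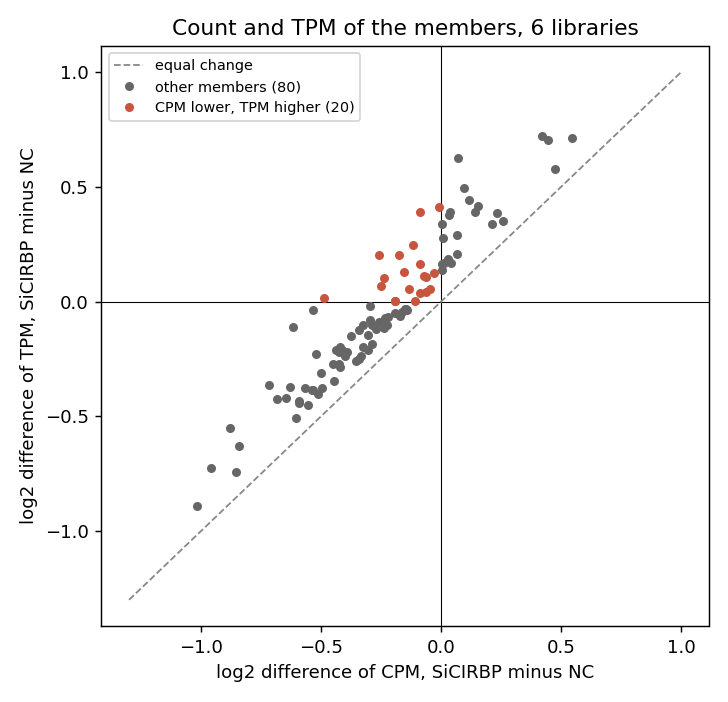
Difference of mean log2 TPM against that of mean log2 CPM, SiCIRBP minus NC over 6 libraries, one point per member. Points lie above the dashed line of equal change because of the rule, and the 20 red points are lower in CPM and higher in TPM.

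By edgeR's quasi-likelihood test on the counts of the study's 4 libraries, 34 members were called lower and 3 higher at an adjusted p under 0.05. Over all 15421 genes tested, 9.76% were called lower and 9.62% higher. The count is part of the measure that chose the members and comes from the same contrast, so nothing is read from these shares. The median log2 change was -0.22 over the members and 0.03 over all 6806 expressed genes. Over all 6 libraries no gene was called in either direction, members included. There, 31 of the 100 members had an unadjusted p under 0.05, beside 3603 of all 15217 genes. DESeq2 on the 4 libraries called 35 members lower and 4 higher, beside 1555 lower and 1393 higher of all 13072 genes tested.

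IRS2, the insulin receptor substrate, had the most negative count change (-1.23 ± 0.09, SE). Its CPM was 41.1, 86.7 and 91.1 in NC and 39.4, 38.2 and 36.4 in SiCIRBP, so that NC_1, which is not in the test, lay with the knockdown. RAB8B followed at -0.99 ± 0.10, with 54.2, 55.1 and 55.8 CPM in NC and 28.8, 34.5 and 26.9 in SiCIRBP, and KMT2A at -0.83 ± 0.08. The lower calls took in 8 of the 16 chromatin regulators, 5 of the 10 membrane traffic members and 3 of the 10 cytoskeletal members. They took in 0 of the 2 nuclear pore proteins, 34 of all 100 members and 808 of all 6806 expressed genes. The groups were assembled after the members were known, so nothing is read from these counts. The members called higher were POP4, a subunit of ribonuclease P, SOD2, the mitochondrial superoxide dismutase, and FBN1. POP4 had the largest positive change (0.61 ± 0.11), with 46.8, 33.4 and 29.1 CPM in NC and 48.6, 53.9 and 46.6 in SiCIRBP. SOD2 had 40.4, 30.6 and 33.3 CPM in NC and 44.9, 64.3 and 44.4 in SiCIRBP. FBN1 was at 866, 965 and 958 CPM in NC and at 1312, 557 and 1160 in SiCIRBP, so that SiCIRBP_2, outside the test, went the other way.

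No gene on the lists of 3′ end processing factors and of SR and hnRNP splicing factors was among the members. Of 22 expressed genes of a list of 3′ end processing factors, 9 were lower in every SiCIRBP library and 3 higher, and CPSF6 (-0.24, 2152, 2163 and 2348 bases in NC and 1964, 1849 and 1911 in SiCIRBP) came nearest to the 100. On their counts over the 4 libraries, 6 of 26 tested were called higher and 0 lower, where 9.62% of all genes were called higher and 9.76% lower. Of 42 SR and hnRNP splicing factors 11 were lower and 2 higher in implied length, with 17 of 44 called higher and 2 lower on counts. Of 27 RBM genes 4 were lower and 2 higher, with 8 of 39 called higher and 4 lower. Over all 6 libraries no gene was called on counts in either direction, so none of these calls held there. Of 82 ribosomal protein genes 7 were lower and 1 higher, of 21 apoptosis regulators 6 and 1, of 10 clock genes 0 and 2, and of 9 interferon-stimulated genes 1 and 1. Against the background of 17.8% lower genes, the 9 of 22 end processing factors were the largest share of these lists, and no test was made. The median log2 difference of that list was only -0.020, against -0.014 over all expressed genes. As above, the number of genes lower in every SiCIRBP library depended on the scaling. Of the cold-inducible pair, RBM3 overlapped, at 1375, 1323 and 1297 bases in NC and 1291, 1386 and 1347 in SiCIRBP. CIRBP itself was longer, not shorter, in SiCIRBP, at 826, 829 and 816 bases in NC and 1092, 1189 and 993 bases in SiCIRBP.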

How the data were processed

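RNA-seq of 6 libraries was analysed, grouped by their labels. Per the submitters' processing notes, reads were handled with fastp, HISAT and RSEM on hg38; versions and the annotation release are not given in the sources used here. The authors deposited an estimated count per gene and library, not normalized and not always whole, and a TPM value scaled by assigned transcript length. The authors' deposited fold and p-value columns were not used. The members, gene lists, functional groups and tests were chosen with earlier results of these data known.

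Implied length was the deposited count over TPM, divided by the library's median. Lengths in bases came from the densest 1% band of genes with 1 GENCODE 29 transcript (GRCh38). Identifiers of 58611 of 58884 genes matched GENCODE 29. Counts were rounded and tested in edgeR 4.0.16 (R 4.3.3; TMM, filterByExpr, glmQLFit, glmQLFTest, Benjamini-Hochberg) over the study's 4 libraries, with DESeq2 1.42.0 as an alternative, and tables were made in Python 3.11.15. The edgeR test, the fitted line and the choice of members by the rule were tried on simulated data, and DESeq2 was not. Members had at least 500 counts per library, but the effective length also carries the error of the transcript assignment, which the deposited files do not give.

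Named genes were the 20 members with the most negative difference, the 10 with the highest mean TPM, members in a list, the last pair inside and the first pair outside the 100, those with the largest count change in each direction, and CIRBP. Other genes were named after their values were seen. A gene that this rule names is not reported here. The lists were 3′ end processing factors, SR and hnRNP splicing factors, RBM, clock, apoptosis, interferon-stimulated, ribosomal protein and cold-inducible genes and cell type markers.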

Additional observations from a re-analysis of the deposited data

How the results depend on the processing

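The median log2 difference of the members, -0.32, was -0.20 without scaling, between -0.36 and -0.27 with 1 library left out, and -0.31 over the study's 4 libraries. The rule fixes the direction of every member when libraries are left out, so this range is no sign of stability. Other choices returned part of the members to the first 100: 50 with a minimum of 1000 counts, 41 without scaling, 63 over the 4 libraries, and 74 to 84 with 1 library left out. Genes lower in every SiCIRBP library, 1210 of all tested, numbered 45 without scaling, 529 by the slope scaling, 2708 over the 4 libraries and 1405 to 2161 with 1 library left out. Higher genes, 501, numbered 1892, 945, 1129 and 700 to 857. Fewer libraries raise both counts by construction. Of the members called on counts, 34 lower and 3 higher, none remained over all 6 libraries. None remained with the replicate block either (0 lower and 0 higher). With the block 28 members had an unadjusted p under 0.05 by edgeR's test, beside 2933 of all 15217 genes. Of the members, 9 were called lower and 1 higher without SiCIRBP_2 alone, and 1 lower and 0 higher without NC_1 alone. Over all genes these fits called 564 lower and 554 higher of 15530, and 13 lower and 5 higher of 15528. Both fits were chosen after seeing the data, as was the slope scaling. With 1 of the 4 libraries left out the calls ran from 1 to 53 lower and from 0 to 8 higher, fewest without NC_3 and most without SiCIRBP_1. That range counts members. The calls over all genes tested were also fewest without NC_3 and most without SiCIRBP_1, so the swing is not particular to the members. The lone library left in a group was taken to vary like the others. Without the filter 6 members were called higher. Deviations of same-numbered libraries correlated at -0.12, 0.01 and -0.03. These values show no strong shared deviation by replicate number, but cannot tell whether same-numbered libraries were prepared together. The cause of these changes was not tested.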

Other observations

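The deposited GO annotation gives a further description of the members, with no test. Of 98 members with an annotation, 18 (18.4%) had a term naming chromatin or histones, against 11.3% of the expressed genes and 7.07% of the 100 genes whose implied length was most increased in SiCIRBP. RNA binding was named for 20.4% of the members, against 17.7% and 12.1%, and actin or the cytoskeleton for 21.4%, against 16.6% and 21.2%. The mitochondrion was named for 10.2%, against 16.6% and 14.1%, and ubiquitin for 15.3%, against 12.7% and 12.1%. Long genes are common among the members, and the part of gene length in these shares was not tested.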
